A study of Homo sapiens with 3 samples.

Results

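The genes described here encode the proteasome: the 14 subunits of the 20S core, 17 subunits of the 19S cap, 4 activators, 5 assembly chaperones of the core, 3 assembly chaperones of the cap's base, and the transcription factor NFE2L1. They were chosen by gene symbol, not by a measured value, and matched to the deposited tables through Entrez identifiers. All 44 were found among the 19266 genes of the tables, and all 44 passed the filter on low counts. RNA was sequenced from KYSE510, an established human line of esophageal squamous cell carcinoma. The control cells received lentivirus with a scrambled short hairpin RNA, and the other cells received hairpin 1 (sh1) or hairpin 2 (sh2) against the transcript TCONS_02256997. Every group, control included, thus carried a lentiviral hairpin and was kept for 24 h with virus and then for 48 h under 4 µM puromycin. Each group was 1 GEO sample with 3 numbered tables, taken here as 3 libraries. Nothing in the labels tells whether these came from separate cultures, library preparations or runs, so each p-value measures only the spread between these tables, which may be technical. TCONS_02256997 itself was not analysed here, so its knockdown is not shown.

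The proteasome degrades proteins that carry ubiquitin chains. Its 20S core is a barrel of 2 outer alpha rings, which gate the entry, and 2 inner beta rings, which hold the proteolytic sites. The 19S cap sits on the end of the barrel: its base holds a ring of ATPases that unfold the substrate and thread it into the core, and its lid holds the enzyme that cuts the ubiquitin chain off. Dedicated chaperones build the core and the base and then leave or are degraded. NFE2L1 is anchored in the endoplasmic reticulum and is normally degraded. When proteasome activity drops, it is pulled out by the ATPase VCP, stripped of glycans by NGLY1, cut by the protease DDI2, and activates proteasome genes with a small MAF partner at antioxidant response elements.

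Promoter sequence is shown because most subunit genes moved together. Of the 44 genes, 38 had a promoter in a RefSeq table of GRCh38.p14, which is not the hg19 build of the deposited tables; PSMD4, PSMB7, PSMA7, PSMG3, PSMB6 and PSMB1 had none. Each promoter covered 250 bases before and 50 after the first listed start, and 7 genes had more than 1 start. The core of the antioxidant response element, TGACNNNGC on either strand, was in 12 of the 38 promoters (31.6%). The same letters were in 14.8% of 11061 promoters of tested genes and in 13.6% of 27305 promoters in the table. No match overlapped another searched motif. The CCAAT box was in 18 of the 38 (47.4%, against 36.8% of promoters of tested genes), the ETS box CCGGAAG in 13 (34.2% against 18.4%) and TATAAA in 4 (10.5% against 6.17%). Over the 27305 promoters the shares were 35.7%, 10.7% and 12% in that order, so TATAAA was above 1 background and below the other. By part, the ETS box was in 9 of 16 cap promoters (56.2%) and 0 of 10 core promoters. The response element was in 4 of 16 cap promoters (25%) and 1 of 10 core promoters (10%), against 14.8% of promoters of tested genes. The other 7 promoters with it lie outside the core and cap. They are those of PSME1, PSME2, PSME4, PSMD5, PSMD9, PSMG1 and PSMG2, and of these genes PSMD5 and PSMD9 were called higher with both hairpins. A match is a string of letters and was not tested as a site. The 3 promoters below were picked among subunit genes called higher with both hairpins and hold the element, in capitals, 104 (PSMB3), 37 (PSMD3) and 165 (PSMD12) bases before the start. PSMD3 has another match 33 bases after the start on the opposite strand, outside the stretch shown. POMP, the chaperone with the greatest rise, holds no such element in this window, and its ETS box is in capitals on the opposite strand. The short stretches of PSMC4 and PSMD1 show the element 27 and 39 bases after the start, for PSMC4 on the opposite strand. All are written 5′ to 3′ on the gene's strand.
PSMB3, chr17:38752491-38752740, plus strand: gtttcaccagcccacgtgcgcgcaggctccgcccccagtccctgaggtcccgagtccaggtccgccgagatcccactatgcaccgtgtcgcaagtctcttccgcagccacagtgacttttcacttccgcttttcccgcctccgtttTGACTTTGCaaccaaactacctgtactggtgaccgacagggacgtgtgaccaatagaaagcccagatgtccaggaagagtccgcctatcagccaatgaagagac
PSMD3, chr17:39980557-39980806, plus strand: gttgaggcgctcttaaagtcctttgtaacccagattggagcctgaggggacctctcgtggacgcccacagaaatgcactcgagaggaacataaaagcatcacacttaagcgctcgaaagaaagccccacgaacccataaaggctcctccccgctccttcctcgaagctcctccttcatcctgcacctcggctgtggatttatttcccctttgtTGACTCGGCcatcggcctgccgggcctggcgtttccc
PSMD12, chr17:67366578-67366827, minus strand: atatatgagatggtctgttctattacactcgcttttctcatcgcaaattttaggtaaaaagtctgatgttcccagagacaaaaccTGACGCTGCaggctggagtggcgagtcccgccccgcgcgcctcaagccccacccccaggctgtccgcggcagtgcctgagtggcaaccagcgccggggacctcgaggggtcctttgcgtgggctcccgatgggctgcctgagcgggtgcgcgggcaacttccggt
POMP, chr13:28658880-28659129, plus strand: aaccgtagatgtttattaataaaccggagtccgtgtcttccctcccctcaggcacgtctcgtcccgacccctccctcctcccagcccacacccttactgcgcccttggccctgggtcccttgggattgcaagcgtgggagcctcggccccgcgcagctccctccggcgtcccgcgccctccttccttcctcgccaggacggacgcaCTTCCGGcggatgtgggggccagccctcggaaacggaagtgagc
PSMC4, chr19:39971182-39971211, plus strand: acagaggccgGCTTGGTCActatggaggag
PSMD1, chr2:231056887-231056916, plus strand: ggcggcctgaggaggcgacTGACTGAGCag

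Levels below are CPM, the rounded expected counts scaled to a common library size by TMM, listed for libraries 1, 2 and 3 of a group. Changes are log2 fold changes ± SE. A gene was called at an adjusted p below 0.05 in the quasi-likelihood test of edgeR, adjusted after Benjamini and Hochberg over 13580 genes, and each adjusted p below comes from that test unless another tool is named. Libraries held 14660821 to 16092417 expected counts, and a floor of 3 counts was 0.186 to 0.205 CPM, for counting error only. The differences between groups were wide: 69.3% of all genes were called with sh1 against control, 68.5% with sh2 and 69.8% between the hairpins. The 9 squamous markers were above 1 CPM in each group, and their sum was 5122 to 5179 CPM in control, 3258 to 3308 with sh1 and 4153 to 4276 with sh2. Of 5 markers of simple epithelium, KRT8 and KRT18 were above 1 CPM and CDX2 was at 0 in every library; their sum was 2143 to 2239 CPM in control, 2445 to 2541 with sh1 and 2778 to 2876 with sh2. Of 5 leukocyte markers, CD68 made up most of a sum of 82.8 to 87.3, 129 to 136 and 120 to 136 CPM in the same order, and PTPRC was at 1.26 to 2.44 CPM. The sum of 6 fibroblast markers was 48.2 to 50.9, 53.7 to 60.1 and 66.9 to 70.0 CPM in that order, nearly all COL1A1, which was called higher with both hairpins (log2 0.16 and 0.46). The sum of 4 endothelial markers was 13.1 to 15.1, 15.3 to 20.6 and 14.9 to 17.4 CPM, with CDH5 called higher (0.74 and 0.61) and VWF lower (-0.66 and -1.28). Single markers also moved against their list's sum. In the squamous list SOX2 rose (1.26 and 0.74) and KRT6A rose with sh2 (0.54). In the list of simple epithelium KRT18 fell with sh1 (-0.14). The part of these marker shifts in the proteasome results was not tested. In bulk RNA, more cells with a transcript and more of it per cell cannot be told apart. Of the 44 genes, 22 have pseudogenes named in RefSeq, none of them in the tables, so reads shared with those copies are uncertain. RefSeq names antisense genes of 4 of the 44, PSMA3, PSMD3, PSMD6 and PSMG3, and no source used here states whether reads were counted by strand, so for these reads of the gene and its antisense partner cannot be told apart.

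Both hairpins were followed by higher levels of most proteasome subunits. Of the 31 genes of the core and cap, 29 were called higher with sh1, 29 with sh2 and 28 with both. Over all genes, 34.7% were called higher with sh1, 34.2% with sh2 and 19.4% with both. The median log2 change of the 31 was 0.52 with each hairpin, against 0.0141 (sh1) and 0.00455 (sh2) over all tested genes. The 13 genes outside the core and cap were mixed: 4 were higher, 5 lower and 4 not called with sh1, and 5 higher, 7 lower and 1 not called with sh2. Over all 44, 33 were higher and 6 lower with sh1, and 34 higher and 8 lower with sh2, while 34.6% and 34.3% of all genes were called lower. The libraries of the groups did not overlap for 40 of the 44 with sh1 and 41 with sh2, against 71.9% and 70.3% of all genes. Both comparisons use the same control libraries, so they are not independent of each other.

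**Figure D1:**
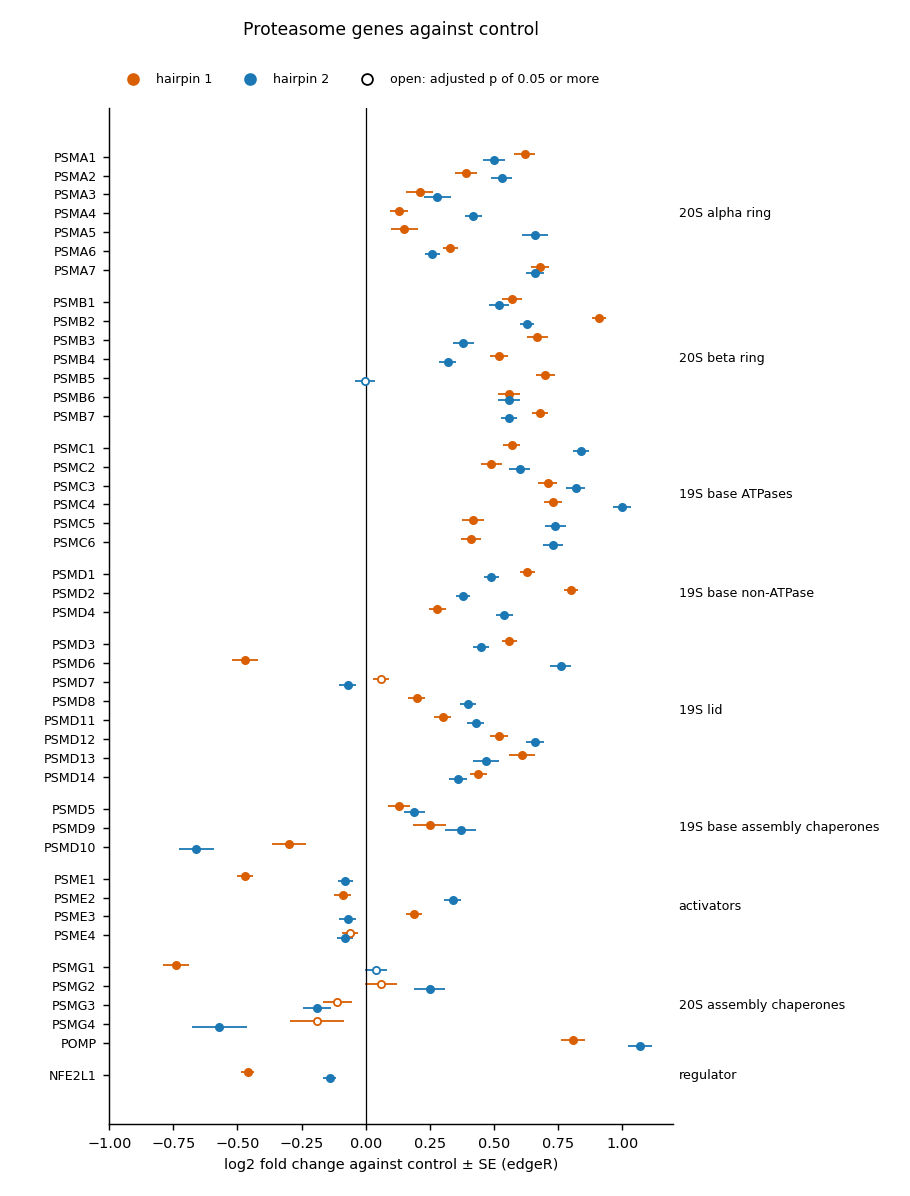
Log2 fold change against control ± SE from edgeR (x axis) for the 44 genes, by part of the proteasome, for hairpin 1 and hairpin 2; open circles have an adjusted p of 0.05 or more. Core and cap genes lie to the right of 0 except PSMD6 with hairpin 1, PSMB5 and PSMD7 with hairpin 2, and the other genes lie on both sides.

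The alpha ring gates the core, and all 7 of its genes were called higher with each hairpin, with medians of 0.33 (sh1) and 0.50 (sh2). PSMA7 (Entrez gene 5688) was at 146, 142 and 138 CPM in control, 232, 221 and 227 with sh1 and 228, 232 and 212 with sh2. All 6 hairpin libraries lay above control, and the changes were 0.68 ± 0.035 (adjusted p = 9.02e-17, edgeR) and 0.66 ± 0.035 (adjusted p = 1.96e-16). PSMA1 (Entrez gene 5682) went from 67.3, 61.7 and 62.4 CPM to 97.3, 102 and 96 with sh1 and 91.8, 92.8 and 86.3 with sh2. Its groups did not overlap, and it changed by 0.62 ± 0.042 and 0.5 ± 0.042 (adjusted p = 5.08e-14 and 9.12e-12, edgeR). PSMA5 (Entrez gene 5686) differed most between the hairpins, with 78.5, 68.1 and 68.9 CPM in control, 80.4, 78.4 and 80.4 with sh1 and 119, 119 and 103 with sh2. Here the highest control library lay at the level of the sh1 libraries, whereas the sh2 libraries stood above both. Its rise with sh1, 0.15 ± 0.053 (adjusted p = 0.013, edgeR), was no longer called without control library 2 (0.11, adjusted p = 0.0934) or 3 (0.12, adjusted p = 0.0686). With sh2 it rose by 0.66 ± 0.05 (adjusted p = 6.57e-13, edgeR). The other members, PSMA2, PSMA3, PSMA4 and PSMA6, rose by 0.13 to 0.39 with sh1 and by 0.26 to 0.53 with sh2.

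The beta ring holds the cutting sites: PSMB5 the chymotrypsin-like, PSMB6 the caspase-like and PSMB7 the trypsin-like activity. All 7 of its genes were called higher with sh1 (median 0.67) and 6 with sh2 (median 0.52). The exception was PSMB5 (Entrez gene 5693), with 83.7, 79.5 and 82.9 CPM in control, 134, 133 and 131 with sh1 and 84.3, 83.8 and 77.4 with sh2. The sh1 libraries stood apart, and the sh2 libraries overlapped control. It rose by 0.7 ± 0.037 with sh1 (adjusted p = 1.94e-16, edgeR), and its change with sh2 was -0.003 ± 0.04 (adjusted p = 0.945), a difference between hairpins of 0.7 ± 0.037 (adjusted p = 1.77e-16). The other catalytic genes were called higher with both hairpins. PSMB6 (Entrez gene 5694) went from 81.6, 79.3 and 75.2 CPM to 112, 119.7 and 115 with sh1 and 114, 123 and 109.8 with sh2. Both hairpin groups lay above control and overlapped each other, and the changes were 0.56 ± 0.043 and 0.56 ± 0.042 (adjusted p = 1.1e-12 and 9.02e-13, edgeR). PSMB7 (Entrez gene 5695) went from 138, 134 and 132 CPM to 212, 222 and 213 with sh1 and 198, 203 and 196 with sh2. It rose by 0.68 ± 0.032 and 0.56 ± 0.032 (adjusted p = 1e-17 and 1.1e-15, edgeR), with no overlap between any of the groups.

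PSMB2 (Entrez gene 5690), a beta subunit without a cutting site, had the greatest rise of any core or cap gene with sh1. Its levels were 209, 212 and 214 CPM in control, 392, 398 and 404 with sh1 and 324, 328 and 333 with sh2. The sh1 libraries were highest, sh2 second and control lowest, with changes of 0.91 ± 0.028 and 0.63 ± 0.028 (adjusted p = 1.95e-22 and 2.57e-18, edgeR). PSMB1, PSMB3 and PSMB4 rose by 0.52 to 0.67 with sh1 and by 0.32 to 0.52 with sh2.

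The ATPase ring of the cap's base, PSMC1 to PSMC6, rose as a whole with both hairpins: 6 of 6 were called higher with each, with medians of 0.53 (sh1) and 0.78 (sh2). PSMC4 (Entrez gene 5704) was at 89.1, 86.2 and 88.1 CPM in control, 142, 148 and 146 with sh1 and 170.5, 179.6 and 177 with sh2. The 3 groups did not overlap, and with sh2 this was the greatest rise of any core or cap gene, 1 ± 0.035 (adjusted p = 4.88e-21, edgeR), beside 0.73 ± 0.036 with sh1 (adjusted p = 2.07e-17). PSMC3 (Entrez gene 5702) went from 118, 108 and 111 CPM to 187, 174 and 191 with sh1 and 198, 198 and 202 with sh2. All hairpin libraries lay above control, and the changes were 0.71 ± 0.037 and 0.82 ± 0.037 (adjusted p = 1.47e-16 and 3.22e-18, edgeR). PSMC5 (Entrez gene 5705) had 65.9, 68.5 and 62.8 CPM in control, 84.8, 90.8 and 88.7 with sh1 and 115, 109 and 107 with sh2. It had one of the widest gaps between hairpins in the ring, -0.32 ± 0.039 for sh1 minus sh2 (adjusted p = 1.95e-08, edgeR), and rose by 0.42 ± 0.043 and 0.74 ± 0.041. PSMC1, PSMC2 and PSMC6 rose by 0.41 to 0.57 with sh1 and by 0.60 to 0.84 with sh2.

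The non-ATPase genes of the base chosen here, PSMD1, PSMD2 and PSMD4, were all called higher with both hairpins (medians 0.63 and 0.49). PSMD2 (Entrez gene 5708), a scaffold that binds ubiquitin shuttles, had 303, 307 and 289.6 CPM in control, 530.3, 516 and 518 with sh1 and 385, 390.3 and 393 with sh2. It was highest with sh1 in every library, with changes of 0.8 ± 0.028 and 0.38 ± 0.028 (adjusted p = 4.75e-21 and 5.62e-13, edgeR) and a hairpin difference of 0.42 ± 0.027 (adjusted p = 2.27e-14). PSMD1 (Entrez gene 5707), the other large scaffold, went from 197, 187 and 186 CPM to 296, 293 and 293 with sh1 and 268, 267 and 266 with sh2. Its groups did not overlap, and it rose by 0.63 ± 0.029 and 0.49 ± 0.03 (adjusted p = 6.87e-18 and 3.98e-15, edgeR). PSMD4, a ubiquitin receptor, rose by 0.28 ± 0.034 with sh1 and 0.54 ± 0.033 with sh2.

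In the lid, which removes ubiquitin chains, 6 of 8 genes were called higher with both hairpins, and PSMD6 and PSMD7 were the exceptions. PSMD6 (Entrez gene 9861), a structural lid subunit, was called in opposite directions: 60.1, 54.9 and 57 CPM in control, 41.6, 44.2 and 38.8 with sh1 and 95.7, 97.4 and 98.3 with sh2. All sh1 libraries lay below control and all sh2 libraries above it. The changes were -0.47 ± 0.05 with sh1 (adjusted p = 1.27e-09, edgeR) and 0.76 ± 0.042 with sh2 (adjusted p = 5.48e-16), and the hairpin difference of -1.22 ± 0.045 (adjusted p = 2.66e-20) was the greatest among the 44 genes. PSMD6 has 2 antisense genes in RefSeq, and the limit on strand given above applies to it. PSMD7 (Entrez gene 5713), the partner of the deubiquitinase PSMD14, had 167, 172 and 173 CPM in control, 176, 183 and 174 with sh1 and 163, 166 and 158 with sh2. Its change was 0.06 ± 0.032 with sh1 (adjusted p = 0.119, edgeR) and -0.07 ± 0.032 with sh2 (adjusted p = 0.0457). The sh2 call was lost with DESeq2 (adjusted p = 0.0717), and with edgeR without control library 2 (0.0868) or 3 (0.101) or sh2 library 1 (0.0695) or 3 (0.151), each given as an adjusted p.

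The lid genes that changed most in the same direction were PSMD12 and PSMD13, both structural. PSMD12 (Entrez gene 5718) went from 80.9, 82.4 and 81.8 CPM to 116, 119 and 116 with sh1 and 128, 135 and 126 with sh2. It rose by 0.52 ± 0.037 and 0.66 ± 0.036 (adjusted p = 1.52e-13 and 2.81e-16, edgeR), with no overlap between groups. PSMD13 (Entrez gene 5719) had 50.2, 44.7 and 48.3 CPM in control, 74.1, 76.7 and 67.5 with sh1 and 65.6, 63.9 and 68.8 with sh2. Its hairpin groups overlapped each other but not control, and the changes were 0.61 ± 0.05 and 0.47 ± 0.05 (adjusted p = 5.37e-12 and 1.69e-09, edgeR). PSMD3, PSMD8, PSMD11 and the deubiquitinase PSMD14 rose by 0.20 to 0.56 with sh1 and by 0.36 to 0.45 with sh2.

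**Figure D2:**
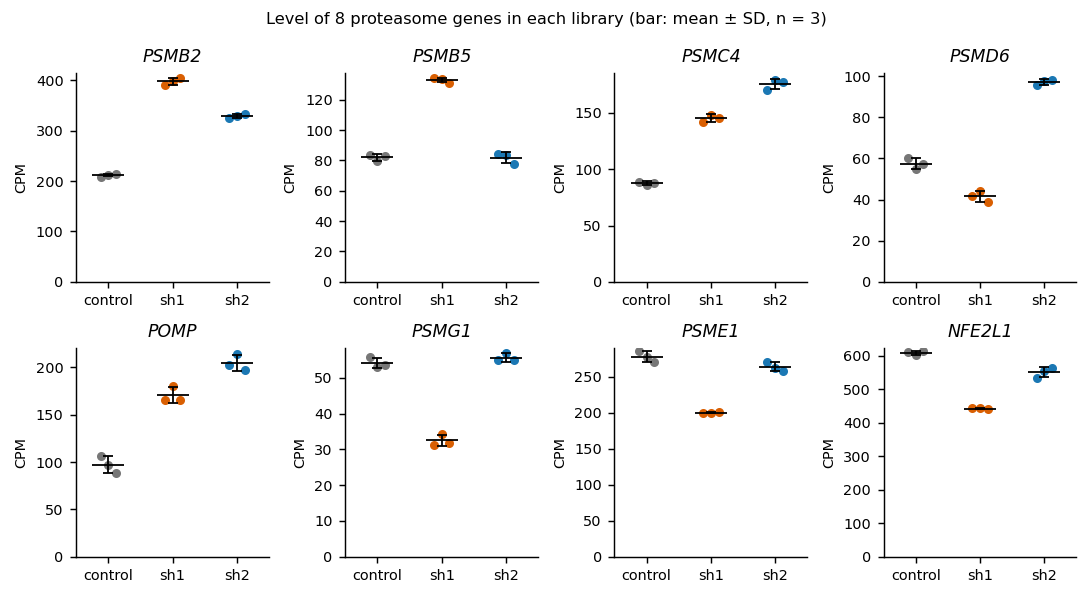
CPM (y axis, from 0) in each of the 3 libraries per group for 8 genes, with the mean ± SD as a bar (n = 3). PSMB2, PSMC4 and POMP were higher in all hairpin libraries, PSMB5 only in the sh1 libraries, PSMD6 moved in opposite directions, and PSMG1, PSME1 and NFE2L1 were lowest with sh1.

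The factors that assemble the proteasome did not move as one. POMP (Entrez gene 51371), which brings the beta subunits onto the alpha ring, was at 107, 96.8 and 88.5 CPM in control, 165, 180.4 and 166 with sh1 and 203, 214 and 197 with sh2. Every hairpin library lay above every control library, and the rises were 0.81 ± 0.047 with sh1 (adjusted p = 1.67e-15, edgeR) and 1.07 ± 0.046 with sh2 (adjusted p = 1.12e-18), the latter the greatest of the 44 genes. PSMG1 (Entrez gene 8624), which with PSMG2 guides the first steps of the alpha ring, had 55.8, 53 and 53.5 CPM in control, 31.2, 34.3 and 31.9 with sh1 and 55, 56.9 and 55 with sh2. The sh1 libraries lay far below the others, and the sh2 libraries overlapped control. It fell with sh1, -0.74 ± 0.05 (adjusted p = 4.65e-14, edgeR), its sh2 change was 0.04 ± 0.044 (adjusted p = 0.441), and the hairpin difference was -0.78 ± 0.049 (adjusted p = 1.18e-14). With sh1, PSMG2, PSMG3 and PSMG4 were not called, at 0.06, -0.11 and -0.19 (adjusted p = 0.391, 0.0973 and 0.0965, edgeR). PSMG3 was called without control library 3 (-0.14, adjusted p = 0.0398) and with limma on log2(FPKM + 0.1) (-0.16, adjusted p = 0.0281) and log2(FPKM + 1) (-0.15, adjusted p = 0.0274), and PSMG4 without sh1 library 2 (-0.29, adjusted p = 0.0269). With sh2, PSMG2 rose by 0.25 ± 0.06, while PSMG3 and PSMG4 were lower, at -0.19 ± 0.056 and -0.57 ± 0.108.

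Of the 3 chaperones of the cap's base chosen here, PSMD10 fell and PSMD5 and PSMD9 rose with both hairpins. PAAF1, which binds the ATPases of the base, is not among them and is described with the pathway lists. PSMD10 (Entrez gene 5716), also known as gankyrin, had 33.1, 28.8 and 32.2 CPM in control, 28, 24.8 and 23.9 with sh1 and 19.2, 19.8 and 20.6 with sh2. The control libraries were highest and the sh2 libraries lowest, with changes of -0.3 ± 0.066 and -0.66 ± 0.068 (adjusted p = 0.000218 and 7.93e-10, edgeR). PSMD9 (Entrez gene 5715) had 28.6, 24.6 and 27.4 CPM in control, 30.4, 31 and 34.4 with sh1 and 35.8, 35.2 and 32.8 with sh2. It rose by 0.25 ± 0.064 and 0.37 ± 0.062 (adjusted p = 0.00101 and 6.22e-06, edgeR), and the hairpin groups overlapped each other. PSMD5 rose by 0.13 ± 0.041 and 0.19 ± 0.04, but its sh1 call was lost without sh1 library 3 (0.10, adjusted p = 0.0572, edgeR).

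The activators cap the core in place of the 19S cap and open it without ATP. As a list they did not share the rise, with medians of -0.07 for both hairpins. With sh1, 1 of 4 was called higher and 2 lower, against 34.7% and 34.6% of all genes. With sh2, 1 was higher and 3 lower, against 34.2% and 34.3% of all genes. PSME1 (Entrez gene 5720), which forms an interferon-inducible ring with PSME2, had 285, 277 and 271 CPM in control, 199.9, 199 and 200.4 with sh1 and 271, 262 and 258 with sh2. The sh1 libraries stood well below both other groups, with -0.47 ± 0.03 (adjusted p = 1.13e-14, edgeR). Its smaller change with sh2, -0.08 ± 0.029 (adjusted p = 0.0234), was no longer called without control library 1 (-0.06, adjusted p = 0.0894) or sh2 library 3 (-0.06, adjusted p = 0.0733). PSME2 (Entrez gene 5721) had 269, 251 and 246 CPM in control, 238, 242 and 238 with sh1 and 333, 328 and 311 with sh2. It was highest with sh2, where it rose by 0.34 ± 0.033 (adjusted p = 1.23e-10, edgeR). The sh1 change of -0.09 ± 0.034 (adjusted p = 0.0179) lost its call without control library 1 (-0.05, adjusted p = 0.207), sh1 library 1 (adjusted p = 0.0557) or sh1 library 3 (adjusted p = 0.057).

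PSME3 (Entrez gene 10197), the nuclear activator, also had calls in opposite directions, with 232, 231 and 231 CPM in control, 268, 265 and 259.9 with sh1 and 213, 215 and 231 with sh2. Its sh1 libraries were highest, and 1 sh2 library lay within the control values. It rose by 0.19 ± 0.031 with sh1 (adjusted p = 2.69e-06, edgeR). The sh2 change of -0.07 ± 0.032 (adjusted p = 0.0393) was not called without sh2 library 1 (-0.05, adjusted p = 0.192) or 2 (-0.06, adjusted p = 0.124), or without control library 1 (adjusted p = 0.0541), 2 (0.0547) or 3 (0.0515). For PSME4, the large ATP-independent activator, the changes were -0.06 ± 0.031 with sh1 (adjusted p = 0.104, edgeR) and -0.08 ± 0.031 with sh2 (adjusted p = 0.0256). The sh1 change was called without control library 2 (-0.08, adjusted p = 0.0375), and the sh2 call was lost without control library 3 (adjusted p = 0.117) or sh2 library 3 (adjusted p = 0.0668).

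NFE2L1 (Entrez gene 4779), the factor that activates proteasome genes, was lower in transcript level with both hairpins. It was at 610.3, 603 and 613 CPM in control, 443, 443 and 441 with sh1 and 534, 555 and 564 with sh2. Control was highest and sh1 lowest without overlap, and the changes were -0.46 ± 0.026 (adjusted p = 9.33e-16, edgeR) and -0.14 ± 0.026 (adjusted p = 1.54e-05). The factor is controlled largely at the level of its protein, which was not measured.

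Levels of different genes were compared per length, in the deposited TPM (a level scaled for transcript length and library size). In control, core genes lay between 46.4 TPM (PSMA5) and 594 TPM (PSMA6), a 12.8-fold span, with a median of 318. Cap genes lay between 45.7 TPM (PSMD12) and 305 TPM (PSMD4), a 6.68-fold span, with a median of 150.3. PSMB4 was at 582 ± 19.5 TPM and PSMB2 at 111 ± 3.1 (SD, n = 3) although each is present once per beta ring. Their control means in CPM were nearly equal, 210 and 212, and their assigned lengths were 925 and 4739 bases, so this gap comes from length. The lowest genes, PSMA5 and PSMD12, had assigned lengths of 3835 and 4426 bases. The spans thus depend on the transcript lengths assigned, which were not checked. PSME2 (791 ± 29.1 TPM) and PSME1 (688 ± 9.62 TPM) stood above every core and cap gene in control. The assembly chaperones ranged from 28.3 ± 2.02 TPM for PSMD9 to 166 ± 13.6 TPM for POMP. POMP reached 281 ± 11.9 TPM with sh1 and 333 ± 13.5 TPM with sh2, above the core chaperones PSMG1 to PSMG4 in each group, of which PSMG1 was highest at 121 ± 2.23 TPM in control. NFE2L1 was at 311 ± 4.52 TPM in control.

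Summed over genes, the core took 4209 ± 123 TPM in control, 5747 ± 83.4 with sh1 and 5381 ± 219 with sh2 (SD, n = 3). The summed cap took 2732 ± 16.3 TPM, 3595 ± 25.6 and 3809 ± 51.6 in the same order. Together they took 0.694% of all TPM in control, 0.934% with sh1 and 0.919% with sh2. All hairpin libraries lay above all control libraries in both sums. Across the groups, the core sum was highest with sh1 and the cap sum was highest with sh2. The summed core-to-cap ratio was 1.499 to 1.574 in control, 1.573 to 1.619 in the sh1 libraries and 1.368 to 1.441 in the sh2 libraries. The sh2 values were below all others, and the sh1 and control values overlapped. The ratio of the median core gene to the median cap gene was 2.12 ± 0.059 in control, 1.93 ± 0.055 with sh1 and 1.85 ± 0.051 with sh2, lower in every hairpin library than in control. With sh1 the median ratio was thus below control while the summed ratio was not.

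**Figure D3:**
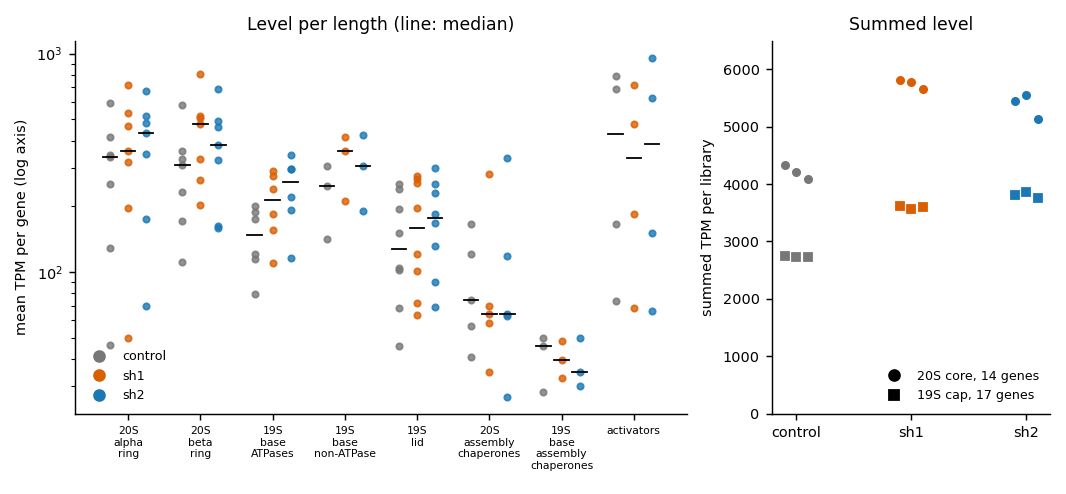
Left, mean TPM per gene (log axis) by part of the proteasome and group, with the median as a line; right, TPM summed over the 14 core genes (circles) and 17 cap genes (squares) in each library, from 0. The core sum was 4083 to 4329 TPM in control and 5137 to 5807 in the hairpin libraries, and the cap sum 2721 to 2750 and 3571 to 3859.

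Core and cap rose by similar amounts relative to control. With sh1 the median log2 change was 0.56 for the core (14 of 14 called higher) and 0.49 for the cap (15 of 17 higher, 1 lower). With sh2 it was 0.51 for the core (13 of 14 higher) and 0.54 for the cap (16 of 17 higher, 1 lower). By library, against the control mean, the core median was 0.554 to 0.587 with sh1 and 0.44 to 0.542 with sh2, and -0.042 to 0.059 among the control libraries themselves. The cap median was 0.437 to 0.537 with sh1, 0.497 to 0.608 with sh2 and -0.021 to 0.028 in control. With sh1 every library had a higher core than cap value within it, and with sh2 library 1 did so while libraries 2 and 3 did not. These medians describe the lists and carry no test.

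The ATPases were lower, and most beta ring genes higher, with sh1 than with sh2. For sh1 minus sh2, the ATPases had a median of -0.27, and 6 of 6 were called lower with sh1, against 35.6% of all genes. The smallest of these differences were not stable to the choice of libraries. PSMC3 (-0.11 ± 0.035) lost its call without sh1 library 2 (adjusted p = 0.0856, edgeR). PSMC2 (-0.11 ± 0.038) lost it without sh1 library 3 (adjusted p = 0.119) or sh2 library 2 (adjusted p = 0.0779), and with limma on log2 FPKM (adjusted p = 0.0849 and 0.0864). The beta ring had a median of 0.20, with 5 of 7 called higher with sh1, against 34.2% of all genes, and 2 not called (PSMB1 and PSMB6). In each library the median change of the ATPases was 0.515 to 0.559 with sh1 and 0.752 to 0.806 with sh2, and that of the beta ring 0.63 to 0.702 and 0.455 to 0.578. Neither pair of ranges overlapped. Alpha ring genes (2 higher, 3 lower, 2 not called) and lid genes (4 higher, 4 lower) fell on both sides. Without sh2 library 3, PSMA1 was no longer called (0.09, adjusted p = 0.0523, edgeR) and PSMA3 was (-0.13, adjusted p = 0.0139). The PSMA6 difference of 0.07 lost its call without sh1 library 2 (adjusted p = 0.0826, edgeR) or sh2 library 1 (0.0708) or 3 (0.119). The PSMD13 difference of 0.14 lost it without sh1 library 2 (adjusted p = 0.0832). The PSMD14 difference of 0.08 lost it without sh1 library 1 (adjusted p = 0.197) or sh2 library 1 (0.121) or 3 (0.0835), and with DESeq2 (0.0902). Over the whole core the median difference was 0.06 (0.09 without sh2 library 2 and 0.03 without sh2 library 3) and over the cap -0.14. Of all 44 genes, 36 were called between the hairpins, 16 higher and 20 lower with sh1.

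**Figure D4:**
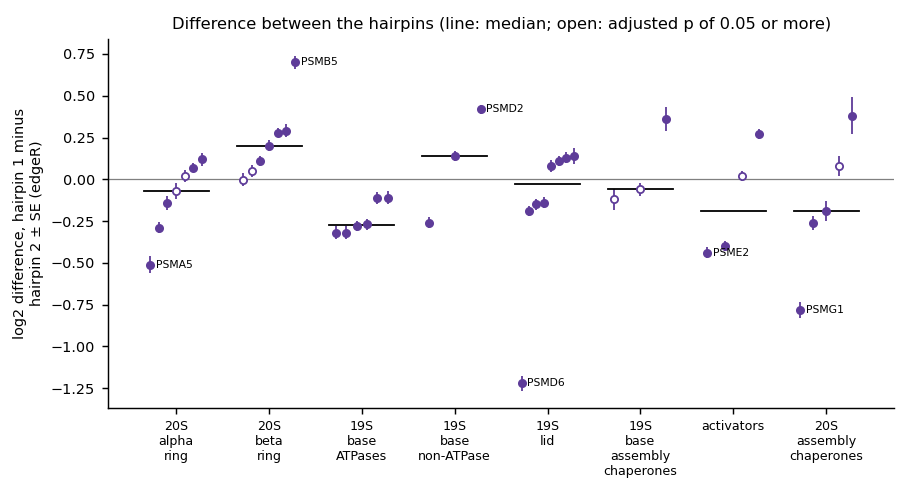
Log2 difference of hairpin 1 minus hairpin 2 ± SE from edgeR (y axis) for each gene except NFE2L1, by part of the proteasome, with the median as a line; open circles have an adjusted p of 0.05 or more. All 6 ATPases lie below 0, PSMB5 (0.70) and PSMD2 (0.42) lie highest, and PSMD6 (-1.22) lies lowest.

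Other genes of the pathway were counted by list. The 3 immunoproteasome subunits, which replace the catalytic beta subunits under interferon, were all lower with sh1 (median -0.37) and all higher with sh2 (median 0.46). Over all genes, 12.7% were called in opposite directions by the hairpins. PSMB9 (Entrez gene 5698) had 116, 112 and 100.3 CPM in control, 74.5, 83.8 and 75.5 with sh1 and 148, 159 and 157 with sh2. Each group stood apart, with -0.49 ± 0.049 and 0.5 ± 0.044 (adjusted p = 3.08e-10 and 2.3e-11, edgeR). No gene of the constitutive beta ring was called in opposite directions.

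Among 15 genes of NFE2L1 processing and its partners, 4 were called higher and 7 lower with both hairpins, against 19.4% and 20.2% of all genes. UFD1 (Entrez gene 7353), which works with VCP in pulling proteins from the membrane, went from 45.2, 41.6 and 43.6 CPM to 87.9, 95.6 and 89 with sh1 and 74.6, 81.1 and 76.6 with sh2. All hairpin libraries lay above control, with 1.06 ± 0.046 and 0.83 ± 0.047 (adjusted p = 1.12e-18 and 7.62e-16, edgeR). VCP itself rose by 0.93 ± 0.031 and 0.57 ± 0.032, and NPLOC4, the third member of that complex, by 0.37 ± 0.034 and 0.44 ± 0.034. MAFF (Entrez gene 23764), a small MAF partner, went from 136, 133 and 137 CPM to 43.4, 40.8 and 44.2 with sh1 and 69.9, 67 and 74.3 with sh2. It fell without overlap, with changes of -1.66 ± 0.043 and -0.94 ± 0.038 (adjusted p = 2.14e-24 and 2.99e-19, edgeR). The related factors NFE2L2 (-0.77 and -0.58) and NFE2L3 (-0.21 and -0.81) were called lower with both as well. So were BACH1 (-0.68 and -0.87), MAFK (-0.74 and -0.51), SEL1L (-0.24 and -0.48) and MAFG (-0.22 and -0.08). The sh2 call of MAFG was lost with DESeq2 (adjusted p = 0.0878). With edgeR it was lost without control library 1 (adjusted p = 0.0547) or 2 (0.0844) or sh2 library 1 (0.0543) or 2 (0.109). DDI2, the protease that cuts NFE2L1, was not called, at -0.11 and -0.15 (adjusted p = 0.307 and 0.159, edgeR). NGLY1, the enzyme that strips its glycans, was at -0.14 ± 0.06 with sh1 (adjusted p = 0.0425, edgeR) and 0.22 ± 0.056 with sh2 (adjusted p = 0.00101). Its sh1 and control libraries overlapped, and its sh1 call was lost with DESeq2 (adjusted p = 0.112) and, with edgeR, without control library 1 (0.192) or 3 (0.111) or sh1 library 1 (0.205) or 2 (0.053), each given as an adjusted p.

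Of 6 ubiquitin and E1 genes, 4 were called higher with both hairpins and none lower with both, against 19.4% and 20.2% of all genes. UBB, a polyubiquitin gene, went from 451, 421 and 431 CPM to 652, 689.7 and 676 with sh1 and 562, 592 and 568 with sh2. It lay above control in all hairpin libraries, with changes of 0.63 ± 0.03 and 0.4 ± 0.03 (adjusted p = 7.99e-18 and 4.99e-13, edgeR). The 8 shuttle factors carry ubiquitinated proteins to the proteasome or to autophagy. With sh1, 2 were higher and 5 lower, against 34.7% and 34.6% of all genes. With sh2, 6 were higher and 2 lower, against 34.2% and 34.3% of all genes. Of the 8, 5 were called in opposite directions by the hairpins, against 12.7% of all genes. NBR1, an autophagy receptor, was at 129.9, 128 and 131 CPM in control, 95.8, 96.3 and 95.5 with sh1 and 172, 179 and 176 with sh2, below control in the former and above it in the latter. UBQLN2 rose (0.12 ± 0.042 and 0.3 ± 0.04) and RAD23B fell (-0.14 ± 0.028 and -0.21 ± 0.027) with both. The sh1 call of UBQLN2 was lost without control library 2 (adjusted p = 0.0508, edgeR).

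Of the 15 further 19S and proteasome-bound genes, 13 were tested, and PSMA8 and PSMB11, tissue-restricted core subunits, were at or near 0. With sh1, 3 were higher and 6 lower, against 34.7% and 34.6% of all genes. With sh2, 7 were higher and 3 lower, against 34.2% and 34.3% of all genes. SEM1, the smallest lid subunit, was at 48.3, 46.6 and 44.9 CPM in control, 56.3, 57.5 and 56.2 with sh1 and 57.8, 53 and 58.9 with sh2. It rose by 0.28 ± 0.048 and 0.28 ± 0.047, as most lid genes did. ADRM1, another gene of this list, was not called with sh1, at 0.06 ± 0.034 (adjusted p = 0.107, edgeR), and rose by 0.58 ± 0.032 with sh2. Its sh1 change was called without control library 1 (0.09, adjusted p = 0.0332, edgeR). AKIRIN2, which brings proteasomes into the nucleus, was at 102, 109 and 103 CPM in control, 53.5, 55.3 and 57.2 with sh1 and 96.7, 97.1 and 95.4 with sh2. It fell with both, with changes of -0.92 ± 0.04 for sh1 and -0.12 ± 0.036 for sh2 (adjusted p = 1.18e-18 and 0.00453, edgeR), and the hairpin difference was -0.8 ± 0.04 (adjusted p = 5.26e-17). PAAF1, which binds the ATPases of the base, had 9.69, 8.18 and 9.83 CPM in control, 6.11, 5.96 and 6.38 with sh1 and 12, 13 and 10.7 with sh2, opposite in direction. Among 10 VCP cofactors, 3 were higher and 3 lower with both, against 19.4% and 20.2% of all genes. FAF1 was at 86.5, 86.8 and 86.2 CPM in control, 36.9, 42.4 and 40.7 with sh1 and 77.1, 74.9 and 73.5 with sh2. ZFAND1 was at 53.5, 49.3 and 49.2 CPM in control, 22.7, 25.7 and 22.1 with sh1 and 30.8, 31.5 and 28.6 with sh2. Each changed by -1.11 with sh1, and by -0.2 and -0.74 with sh2. The deubiquitinase YOD1 was at 71.1, 70.9 and 68.7 CPM in control, 53.7, 55.3 and 56.5 with sh1 and 94.9, 94.4 and 92.1 with sh2, lower than control with sh1 and higher with sh2.

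**Figure D5:**
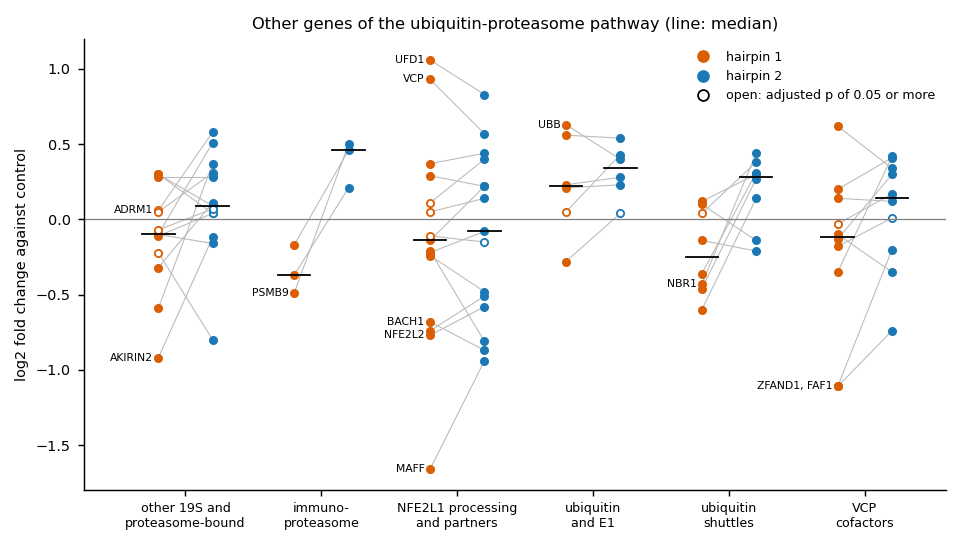
Log2 fold change against control from edgeR (y axis) of the tested genes of 6 pathway lists for hairpin 1 and hairpin 2, joined by gene, with the list median as a line; open circles have an adjusted p of 0.05 or more. The 3 immunoproteasome genes lie below 0 with hairpin 1 and above it with hairpin 2, and VCP and UFD1 lie above 0 and MAFF below it with both.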

How the data were processed

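RNA of KYSE510 cells was measured in 3 samples with 3 tables each. Tools listed, without roles, in the submitters' processing notes are RSEM 1.2.12, HISAT2 2.0.4, DESeq2 1.4.5 and Bowtie2 2.2.5, with build hg19. Per the file headers, the deposited tables hold 3 measures per Entrez identifier: expected count, TPM and FPKM. The deposited expected counts need not be whole, and 70.0% to 70.4% of a library's values were whole to within 1e-06. The deposited TPM values were used for levels between genes, and the FPKM values deposited by the authors only in 2 alternatives, as log2(FPKM + 1) and log2(FPKM + 0.1) restricted to genes averaging 1 FPKM or more, where low genes' changes are understated.

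Expected counts were rounded and analysed with edgeR 4.0.16 in R 4.3.3: filterByExpr (13580 genes), TMM, and 1 quasi-likelihood fit of all 9 libraries with group as the only term, tested on simulated data. The SE is the absolute log2 change divided by the square root of F. Within a sample, tables differed by a chi-square per gene of 1.41 to 2.43, above sampling noise. The coefficient of variation in edgeR was 2.33%. RefSeq (GRCh38.p14) gave symbols to 19223 of 19266 identifiers and the promoters. Alternatives used DESeq2 1.42.0 and limma 3.58.1.

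Values per library are given for NFE2L1, the catalytic subunits, the 2 genes of each part that changed most and the same way with both hairpins, the gene with the greatest hairpin difference in each part, and genes called in opposite directions, with the same kind of rule for the pathway lists; 1 pathway gene that this rule names is not reported here. Other genes named, such as PSMD7, VCP, NPLOC4, NFE2L2, NFE2L3, DDI2, BACH1, MAFK, MAFG, SEL1L and ADRM1, were chosen after their values were seen. The members and lists were chosen with earlier results of these data known.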

Additional observations from a re-analysis of the deposited data

Results flagged for a closer look

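Of the genes named here, 8 were called in opposite directions by the hairpins, and the naming rule picked them for those calls. Each hairpin difference also passed edgeR's quasi-likelihood test (Benjamini-Hochberg adjusted over all genes), which after such a choice is no separate support. Of the 44 genes, 3 were called in opposite directions, against 12.7% of all genes. The log2 difference of sh1 minus sh2 was -1.22 for the lid gene PSMD6, -0.44 for the activator PSME2 and 0.27 for the activator PSME3. For PSME2 and PSME3 the opposite calls rest on a small change with 1 hairpin that is lost without single libraries. Outside the proteasome's constitutive genes, the difference was -0.99 for PSMB9, -0.87 for NBR1, -0.96 for PAAF1, -0.77 for YOD1 and -0.36 for NGLY1. The sh1 change of NGLY1 was also small (-0.14, adjusted p = 0.0425, edgeR), and that call was lost without control library 1 or 3 or sh1 library 1 or 2, and with DESeq2 and limma.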

How the results depend on the processing

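No called change of the 44 genes, and neither the core nor the cap median, changed sign under the alternatives run. Changes near 0 that were not called did so in 3 comparisons: without 1 library, PSMB5 with sh2 was at -0.03 to 0.03, and sh1 minus sh2 at -0.02 to 0.05 for PSMA7 and -0.04 to 0.05 for PSMB6, the last also under other settings. TPM levels and ratios were not recomputed. The number of proteasome genes called was 39 (sh1), 42 (sh2) and 36 (between hairpins), and 37 to 40, 39 to 42 and 33 to 36 when 1 library was left out. With the table number as a replicate block the counts were 39, 42 and 36, and the numbers did not pair the tables (correlations of same-numbered deviations -0.07 to 0.03). DESeq2 gave 39, 41 and 35. Without 1 library, the core median was 0.52 to 0.59 (sh1), 0.47 to 0.54 (sh2) and 0.03 to 0.09 (sh1 minus sh2), and the cap median 0.45 to 0.52, 0.50 to 0.56 and -0.16 to -0.11. With PSMD5, PSMD9 and PSMD10 counted in the cap, its median was 0.43 with sh1 and 0.48 with sh2. Of 132 gene comparisons, 18, of 17 genes, changed call under at least 1 alternative, 36 of the 42 such values by leaving out 1 library. None of those 18 had a log2 change above 0.19 in size. The same alternatives were run for the pathway genes after the data were seen: 19 of 165 comparisons, of 18 genes, changed call, and no called change changed sign. A test between samples was not possible with 1 sample per group.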
